A study of Mus musculus with 5 samples.

Results

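The genes described here encode the collagen chains, the laminin chains and 11 further proteins of the extracellular matrix, read across the 19 cell types of the adult mouse kidney. Genes of the count matrix were taken when their symbol had the form of a collagen chain (*Col1a1*, *Col4a3*) or a laminin chain (*Lama5*, *Lamb2*, *Lamc1*), and *Fn1*, *Fbn1*, *Sparc*, *Nid1*, *Nid2*, *Bgn*, *Dcn*, *Lum*, *Hspg2*, *Agrn* and *Eln* were added by name. This gave 58 of 17389 genes, of which 36 were collagen chains and 11 were laminin chains, and the rule used no measured value. The study compared kidneys of wild type mice (WT) with those of littermates lacking *Fame* (KO), a gene also known as *Ccdc198*, by droplet single-cell RNA-seq. There were 5 libraries of adult FVB/Ant mice, named WT female, WT mix, KO male, KO female and KO mix, and the mix libraries pooled animals of both sexes. The knockout was present in the whole animal, made with CRISPR by placing stop codons behind the start codon, and how many mice stood behind a library was not given in the sources used here. P-values below therefore measure the spread between libraries, and no male WT library was among them.

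Basement membranes are thin sheets of matrix beneath epithelia and around vessels, in which type IV collagen and laminin form separate networks joined by nidogens and heparan sulfate proteoglycans such as perlecan (*Hspg2*) and agrin (*Agrn*). Type IV collagen is a trimer, and the pair *Col4a1* and *Col4a2* makes the form found in most basement membranes, whereas *Col4a3*, *Col4a4* and *Col4a5* together make the form of the mature glomerular filter, mutated in Alport syndrome. Interstitial matrix consists mainly of the fibrillar collagens of types I, III and V with the small proteoglycans decorin (*Dcn*), lumican (*Lum*) and biglycan (*Bgn*), and is laid down chiefly by fibroblasts.

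The type IV genes lie head to head in pairs, and the short stretches between or across their starts are shown because the partners of a pair are compared throughout. Both are given on the plus strand of GRCm38, 5′ to 3′, with 3 promoter motifs in capitals, each searched on both strands, where matches may overlap. The GC box is GGGCGG, the CCAAT box is named by its letters, and the TATA box was searched as TATAAA. The first is the gap between *Col4a4*, on the minus strand of chromosome 1 (chr1:82448423-82586849), and *Col4a3*, on the plus strand (chr1:82586921-82722059). The second is the stretch of chromosome 8 shared by the first exons of *Col4a1*, on the minus strand (chr8:11198423-11312826), and *Col4a2*, on the plus strand (chr8:11312805-11449287).
*Col4a4* to *Col4a3* gap, chr1:82586850-82586920: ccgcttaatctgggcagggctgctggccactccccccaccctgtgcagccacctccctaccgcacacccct
*Col4a1* and *Col4a2* overlap, chr8:11312805-11312826: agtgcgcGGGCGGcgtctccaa
The gap is 71 bases long with 69.0% G or C and holds none of the 3 motifs, whereas the overlap is 22 bases long with 72.7% G or C and holds 1 GC box. Promoter windows of 300 bases, from 250 before to 50 after the start, were present in the RefSeq table of GRCm38.p6 for 41 of the 58 genes. A GC box stood in 28 of them (68.3%), against 35.9% of all 27025 windows. CCAAT stood in 14 (34.1% against 37.9%) and TATAAA in 4 (9.76% against 14.2%). A match describes letters in a window and says nothing of a factor bound there.

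The files held 14197 cells and 60492486 UMIs (unique molecular identifiers, each standing for 1 captured transcript end), with 9791091 to 15950717 UMIs a library. The matrix genes supplied 49688 of them, or 0.0821%. Levels are UMI counts scaled to a total of 1000000 (CPM) of a library or of the cells of 1 type. They are not divided by length because the UMIs count 3′ ends, and a type entered a library's value only with 20 or more cells. *Fame* itself stood at 196 and 71.5 CPM in the WT and at 148, 127 and 83.1 CPM in the KO libraries, so that the genotypes overlapped. These UMI counts do not show whether a transcript carries the inserted stop codons and do not check the genotype. Each list of cell type markers was highest in the type of its name. GL sc, called putative stem cells by the study, had no list of its own. The 12 genes listed for vascular smooth muscle, pericytes and mesangium summed to 4778 CPM there, against 38031 CPM in vascular smooth muscle cells. Of this list *Serpine2*, *Itga8*, *Gata3* and *Pdgfrb* stood at 1742, 1143, 623 and 481 CPM in GL sc. The rest of the list made the smaller part of the sum there and is not given gene by gene. The identity of GL sc was not tested. Red blood cells (RBC), which make no matrix, served as a guide to free RNA: the matrix genes summed to 217 CPM in 873 such cells. The red cell markers alone made 462672 CPM of these cells, so that CPM there understates free RNA beside other types. This holds for every red cell level below. Of the 873 cells, 11 came from WT mix and 41 from KO mix. Red cell transcripts themselves differed between libraries, since they made 32090, 67786 and 51558 CPM of glomerular endothelium in WT female, KO female and KO male but 2034 and 1515 CPM in WT mix and KO mix. The cell types are those of the deposited annotation, clustered on genes that include these, so that levels of 1 type against another are given as a description without a test. Counting intervals below cover counting error only.

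Summed over the 58 genes, fibroblasts (Fib) held by far the highest level, with 19089 CPM in the pooled cells. Podocytes (GL podo), the filtering epithelium of the glomerulus, followed with 5094 CPM, and parietal epithelium (PE), vascular smooth muscle (VSMC), the cluster GL sc and glomerular endothelium (GL endo) held 4184, 3394, 3380 and 2864 CPM. The medullary and distal epithelia lay lower, from 1736 CPM in the long descending limb of juxtamedullary nephrons (Juxt ldl LOH) and 1294 CPM in principal cells of the collecting duct (CD PC) to 698 CPM in the loop of Henle (LOH). Proximal tubule cells lay between 188 CPM (the unidentified cluster PT1) and 712 CPM (PT2). PT1 therefore did not exceed the red cells. Fibroblasts were only 65 cells, 0.458% of all, and supplied 8.14% of the matrix UMIs, whereas the 2958 cells of the proximal straight tubule (PTs) supplied 22.4%.

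Over libraries the sum reached 3293 ± 604 CPM in VSMC (SD, n = 5) and 2627 ± 1045 CPM in GL endo (SD, n = 5). It was 1273 ± 269 CPM in CD PC, 681 ± 76.5 CPM in LOH, 594 ± 102 CPM in the proximal convoluted tubule (PTc) and 509 ± 68.9 CPM in PTs (SD, n = 5 each). Spreads of CD PC and VSMC did not reach each other, and neither did those of LOH and CD PC, while VSMC and GL endo, and likewise PTc and LOH, lay within their spread. In GL endo the libraries fell apart, with 3809 and 3696 CPM in WT mix and KO mix against 2049, 2006 and 1575 CPM in WT female, KO female and KO male. The 3 low libraries are those with the high red cell transcripts. They also share a sequencing run, and both mix libraries came from another. The part of either in the level was not tested, here or wherever the mix libraries stand apart below.

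**Figure D1:**
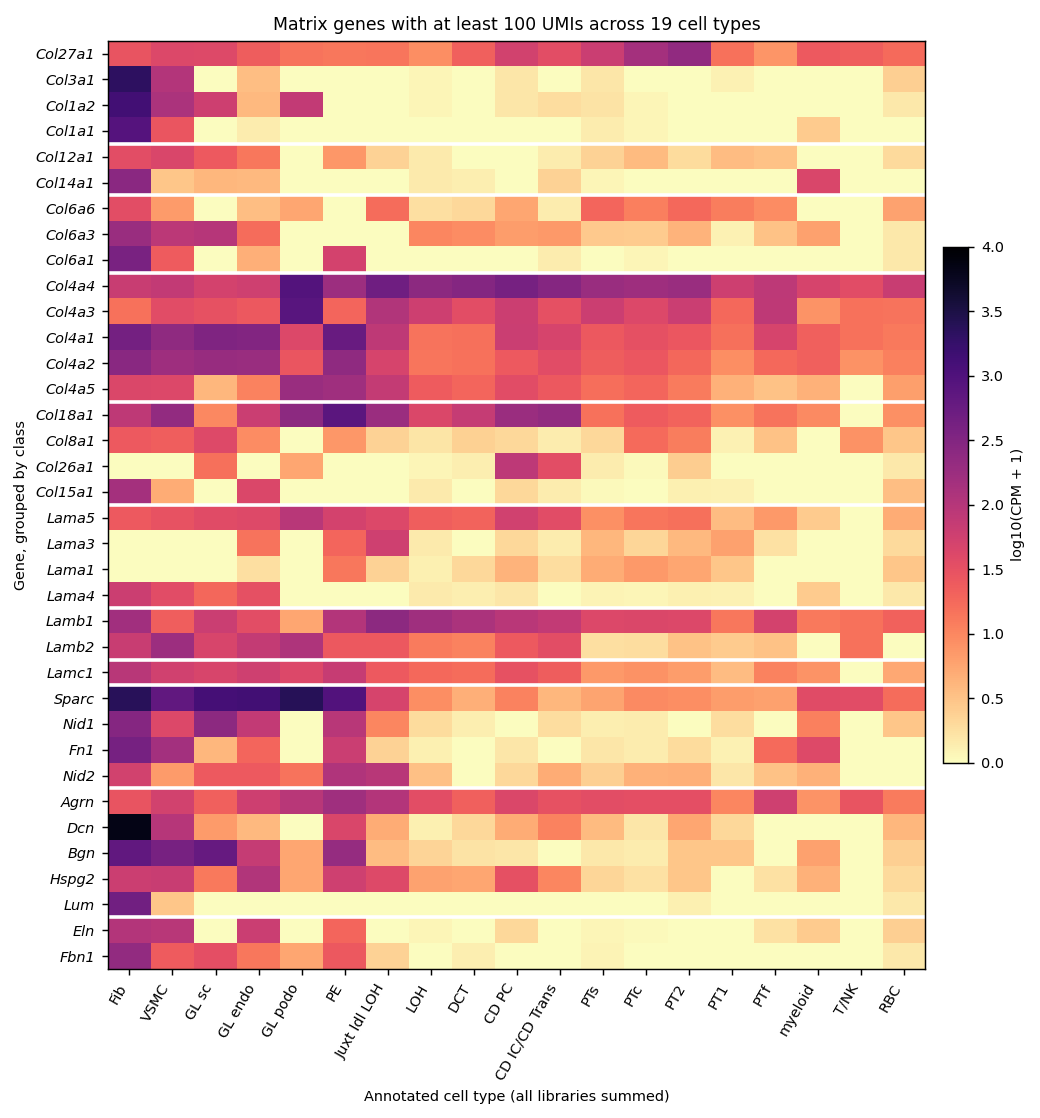
Level of 36 of the 37 matrix genes with 100 or more UMIs (vertical axis, grouped by class) in each of the 19 cell types (horizontal axis), as log10 of CPM plus 1 over the cells of all libraries. The fibroblast column is bright across fibrillar collagens, type VI collagens and proteoglycans, with *Dcn* at 6936 CPM, whereas *Col4a3* and *Col4a4* are brightest in podocytes at 818 and 902 CPM and *Col27a1* in PT2 at 221 CPM.

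Of the 51 genes with 20 or more UMIs, 27 had their highest pooled level in fibroblasts, 6 in VSMC, 5 in podocytes, 5 in PE and 3 in Juxt ldl LOH. The 6 of VSMC were *Lamb2*, *Lamc3*, *Col12a1*, *Col13a1*, *Col19a1* and *Col23a1*, the 5 of PE were *Col4a1*, *Col18a1*, *Nid2*, *Agrn* and *Lama1*, and the 3 of Juxt ldl LOH were *Lamb1*, *Lamb3* and *Lama3*. The place of *Lama1* rests on 2 UMIs and that of *Col19a1* on 4, while 88.4% and 83.6% of their UMIs came from proximal tubule clusters. The other 7 genes of the 58, which include *Col7a1* and *Col17a1* of the epidermal junction and *Col11a2* of cartilage, had 3 to 17 UMIs and are not ordered.

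The chains of type IV collagen split the kidney between them. *Col4a4* was the most abundant matrix gene, with 11371 UMIs, and was found in epithelia along the whole nephron. In podocytes it stood at 713 CPM in WT mix and 993 CPM in KO mix, the libraries with enough of these cells. In CD PC it stood at 365, 487, 391, 336 and 445 CPM in WT female, WT mix, KO female, KO male and KO mix, an order of libraries kept below wherever 5 values are given. In LOH the values were 253, 221, 268, 224 and 241 CPM, and in PTs 200.5, 152, 203, 181 and 165 CPM. Levels in CD PC thus lay above those of LOH and PTs in every library, and red cells held 64.8 CPM. *Col4a3*, its partner, was more unequal, with 725 and 948 CPM in podocytes but 55.4, 59.2, 66.8, 61.9 and 52.9 CPM in PTs.

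*Col4a4* made 52.5% of the *Col4a3* and *Col4a4* UMIs in podocytes (95% exact interval 47.3 to 57.5), the cells that secrete the glomerular network. It made 75.5% in PTs, 80.9% in LOH, 87.2% in CD PC and 90.1% in the distal convoluted tubule (DCT). PTf, a proximal cluster that the study named female-specific, was near podocytes with 50.2% (43.4 to 57.0). Of its 275 cells 23 and 25 came from WT female and KO female, 66 from WT mix, 152 from KO mix and 9 from KO male. How well each 3′ end is captured enters such a share, so that its change between types can be read but not its value in 1 type. *Col4a3* shares its span with *C430014B12Rik* on the other strand and *Col4a1* shares its span with other annotated genes, and whether strand was used in counting was not given in the sources used here. *Col4a5*, the third chain of the network, was likewise highest in podocytes, at 246 and 143 CPM, and reached 162 CPM in PE.

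*Col4a1* and *Col4a2*, the general pair, had their highest levels in parietal epithelium, stroma and vessels, although the many proximal tubule cells supplied 39.2% and 45.3% of their UMIs. In GL endo *Col4a1* stood at 134, 456, 157, 118 and 494 CPM and *Col4a2* at 122, 239, 148, 142 and 243 CPM. Both mix libraries, 1 of each genotype, lay above the other 3. PE held the highest pooled *Col4a1*, at 579.9 CPM, with 429.7 CPM in Fib, 332 CPM in GL sc and 12.3 CPM in red cells. The pair made 84.5% of the type IV UMIs in GL endo (82.5 to 86.3) and 71.2% in VSMC, but 15.5% in PTs, 7.44% in LOH and 3.37% in podocytes (1.90 to 5.50). PE, an epithelium that continues into podocytes at the vascular pole, stood with the vessels at 68.4%. Across the 19 types the pooled levels of *Col4a1* and *Col4a2* followed each other with a Spearman rho of 0.933 and those of *Col4a3* and *Col4a4* with 0.775, as a description over types that share libraries. *Col4a6* had 32 UMIs in all.

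Laminins are trimers of an alpha, a beta and a gamma chain. Of the beta chains, *Lamb2* is that of the mature glomerular basement membrane, and *Lamb1* is the more general one. *Lamb1* stood in LOH at 198, 82.8, 172, 212 and 67.9 CPM, and in PTs at 51.6, 21.2, 50.3, 37.7 and 29.0 CPM. The 2 mix libraries were the lowest in both types. *Lamb2* stood in VSMC at 73.7, 271, 94.1, 128 and 222 CPM and in GL endo at 49.8, 97.6, 56.8, 23.6 and 101 CPM, where the mix libraries were the highest. No *Lamb2* UMI was found in red cells.

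*Lamb1* made 97.9% of the *Lamb1* and *Lamb2* UMIs in PTs (96.8 to 98.8), 93.1% in LOH (91.4 to 94.5) and 92.7% in DCT. Toward the collecting duct the share was 78.7% in CD PC and 68.5% in intercalated and transitional cells (CD IC/CD Trans). In CD IC/CD Trans it ran from 47.4% in KO mix to 76.4% in WT female. It was 31.7% in GL endo (26.1 to 37.7), where the libraries with enough UMIs had 51.0% in WT female, 20.5% in WT mix, 39.0% in KO female and 23.0% in KO mix. It was 11% in VSMC (11 of 100 UMIs, 5.62 to 18.8) and 3.70% in podocytes (0.0937 to 18.97). *Lamb3*, the beta chain of epithelial anchoring laminin, was highest in Juxt ldl LOH at 27.7 CPM.

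**Figure D2:**
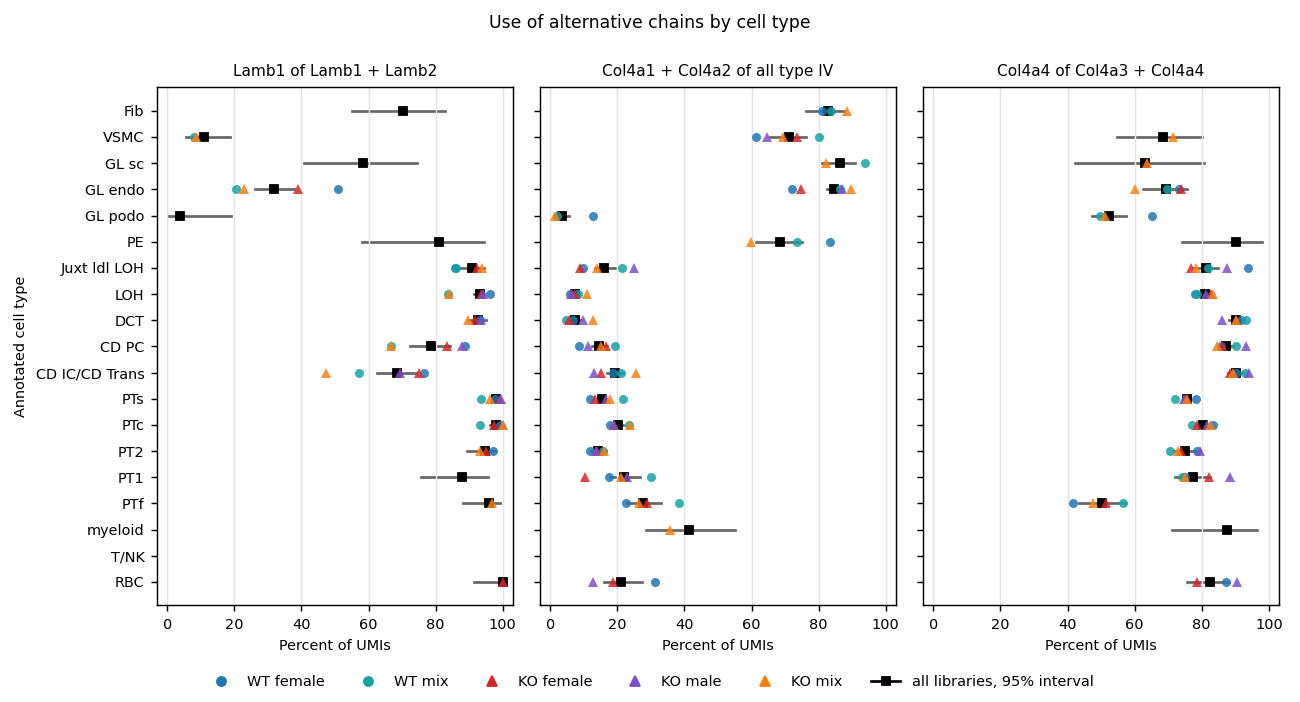
Share in percent (horizontal axis) of *Lamb1* among *Lamb1* and *Lamb2* UMIs, of *Col4a1* and *Col4a2* among all type IV UMIs and of *Col4a4* among *Col4a3* and *Col4a4* UMIs in each cell type (vertical axis), with coloured points for libraries holding 20 or more of these UMIs and black squares with 95% intervals for all libraries together. Podocytes stand at the left for both the first share, 3.70%, and the second, 3.37%, while GL endo stands at 31.7% and 84.5%.

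Among the alpha chains, *Lama5* is the chain of most adult epithelial and endothelial basement membranes. It took all 21 alpha chain UMIs of podocytes (lower 95% limit 83.9%), 94.6% in LOH, 90.7% in CD PC, 50.9% in PTs and 44.7% in GL endo, but 11.1% in Fib. *Lama2*, the chain of muscle and mesenchyme, was highest in Fib at 127 CPM. *Lama4*, a vascular chain, stood at 61.4 CPM in Fib, 35.2 CPM in VSMC and 31.8 CPM in GL endo. *Lama3* was highest in Juxt ldl LOH at 56.7 CPM, which was also the type highest in *Lamb3*. Of the gamma chains, the general chain *Lamc1* was highest in Fib, PE and GL endo (94.4, 68.6 and 55.4 CPM).

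Some less known collagens stood high in epithelial segments, *Col18a1* not in these alone. *Col18a1*, the source of endostatin and a proteoglycan of basement membranes, stood in CD IC/CD Trans at 203, 228, 219.9, 172 and 271 CPM and in CD PC at 110, 273, 159.99, 99.99 and 232 CPM. These ranges overlapped. Pooled PE held 767 CPM, podocytes 253 CPM and red cells 7.36 CPM. Outside the epithelia, VSMC held 210 CPM of *Col18a1* as the mean of 5 libraries. *Col26a1* stood in CD PC at 47.3, 136, 85.3, 40.0 and 98.9 CPM, while in LOH and in DCT 1 UMI each was found. Within the type, both mix libraries were the highest.

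*Col27a1*, a fibrillar collagen known from cartilage, was the third most abundant matrix gene with 4048 UMIs, and 89.2% of these came from proximal tubule clusters. It stood in PT2 at 253, 153, 383, 91.8 and 106 CPM, in PTc at 155, 147, 197, 103 and 82.7 CPM and in PTs at 65.7, 59.5, 105, 33.2 and 32.5 CPM. KO female was the highest library in each of these types. *Col15a1*, a basement membrane collagen of vessels, stood at 146 CPM in Fib and 42.4 CPM in GL endo. *Col8a1* was found at 38.6 CPM in GL sc and 16.5 CPM in PTc.

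*Col4a4* also led DCT and Juxt ldl LOH. In DCT the leading genes were *Col4a4* at 305 CPM, *Lamb1* at 112 CPM and *Col18a1* at 67.3 CPM as means of 5 libraries, and in Juxt ldl LOH *Col4a4* at 559.96 CPM, *Lamb1* at 250.1 CPM and *Col18a1* at 239 CPM as means of 2. PTf was led by *Col4a3* at 84.5 CPM, *Col4a4* at 79.3 CPM and *Agrn* at 62.7 CPM. Myeloid cells held *Col4a4* at 45.9 CPM, below the red cells, and *Col14a1* at 44.7 CPM. In T and NK cells *Col4a4* at 69.1 CPM lay near the red cell level.

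*Sparc*, a secreted protein that binds collagen and is made by cells that remodel matrix, was the second most abundant of the genes with 5729 UMIs. It led the matrix genes of podocytes, with 2557 and 2486 CPM in WT mix and KO mix, and of GL endo, with 807, 1952, 925, 689 and 1832 CPM. In VSMC it stood at 685, 638, 482, 466 and 873 CPM. The mix libraries were the highest in GL endo, and in VSMC the ranges of the genotypes overlapped. At least 1 *Sparc* UMI was found in 93.8% of fibroblasts, 87.5% of podocytes, 79.5% of GL endo cells and 63.3% of VSMC, against 3.21% of red cells. The median depths were 2067, 2262, 1679.5, 1848.5 and 1910 UMIs a cell. Thinning each cell to 1000 UMIs, which left out 0 cells, gave 86.2%, 82.8%, 65.1%, 45.0% and 1.49%.

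The nidogens, which link laminin to type IV collagen, had different leading types. *Nid1* stood at 288 CPM in Fib and 246 CPM in GL sc, and *Nid2* at 112 CPM in PE and 92.3 CPM in Juxt ldl LOH. Fibronectin (*Fn1*), an adhesive glycoprotein, stood at 415 CPM in Fib, 150.4 CPM in VSMC and 39.1 CPM in myeloid cells. Perlecan (*Hspg2*) was highest in GL endo, at 59.8, 188, 59.1, 19.7 and 135 CPM, and agrin (*Agrn*) in PE at 162 CPM. Perlecan again had its highest values in the mix libraries.

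Interstitial matrix was concentrated in the fibroblasts. *Dcn* stood at 6936 CPM there, followed by *Col3a1* at 2119.9 CPM, *Col1a2* at 1336 CPM, *Col1a1* at 873 CPM, *Bgn* at 656 CPM and *Lum* at 467 CPM. The next type for *Dcn* was VSMC with 97.7 CPM, and red cells held 2.94 CPM. Fibroblasts supplied 97.1% of all *Lum* UMIs, 88.5% of *Dcn*, 87.3% of *Col1a1*, 85.2% of *Col3a1* and 68.5% of *Col1a2*. Of the 65 fibroblasts 57 held a *Dcn* UMI, 54 a *Col3a1* UMI and 41 a *Col1a1* UMI. *Dcn* was found in 87.7% of them and in 0.687% of red cells, or in 80.0% and 0.344% after thinning. *Bgn* was also found in GL sc, at 646 CPM as the mean of libraries, and in VSMC at 211, 558, 235, 289 and 506 CPM. *Col1a2* was also found in podocytes at 75.6 CPM, on 17 UMIs.

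The minor fibrillar chains *Col5a1*, *Col5a2* and *Col11a1*, which set fibril width, stood in Fib at 109, 222 and 9.44 CPM. Of the proteins on or beside fibrils, *Col16a1* stood there at 28.3 CPM and *Col20a1* at 18.9 CPM. These 5 genes had 21 to 94 UMIs in all. CD PC supplied 66.7% of the *Col11a1* UMIs and stood at 7.84 CPM. Proximal tubule clusters supplied 41.7% of the *Col16a1* and 43.5% of the *Col20a1* UMIs.

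Type VI collagen forms beaded microfilaments around cells. Its chains *Col6a1*, *Col6a2* and *Col6a3* stood at 382, 194 and 184 CPM in Fib, with 97.9 CPM of *Col6a3* in GL sc and 87.9 CPM in VSMC. The pooled levels of *Col6a1* and *Col6a2* had a rho of 0.657 across types. *Col6a5* stood at 47.2 CPM in Fib on few UMIs, 20 in all. *Col6a6*, an alternative chain like it, went its own way, with a rho of 0.0514 to *Col6a1* and 91.6% of its UMIs in proximal tubule clusters. The highest pooled level of *Col6a6* was still in Fib, at 33.1 CPM, before PTs at 18.5 CPM. Elastic fibre genes *Eln* and *Fbn1* stood at 104 and 217 CPM in Fib, and *Eln* also at 93.7 CPM in VSMC and 63.9 CPM in GL endo. In GL endo *Eln* stood at 118, 50.5, 34.1, 90.5 and 45.1 CPM. Of the collagens that decorate fibrils, *Col14a1* was found in Fib at 255 CPM and in myeloid cells at 44.2 CPM, with none in PT1, PTf or red cells. *Col12a1* stood at 43.0 CPM in VSMC, as did the membrane collagens *Col13a1* and *Col23a1* at 50.8 and 37.1 CPM.

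To ask what the loss of *Fame* did, the 3 KO libraries were compared with the 2 WT libraries by edgeR's quasi-likelihood test on summed counts. Each library entered as the sum of all its cells, and also by each of 11 types with 20 or more cells in every library fitted. With all cells, fewer cells of a type and less RNA per cell cannot be told apart. No gene passed an adjusted p of 0.05 in all cells or in any type (background 0% in each), and DESeq2 called 0 as well. Of 13654 genes tested in all cells, 12 had an unadjusted p under 0.05 by edgeR and 12 by DESeq2. Among the 46 matrix genes that passed the filter on low counts, 2 had such a p by edgeR and 5 by DESeq2, and the other 12 matrix genes did not pass it.

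The largest differences lay in fibroblast genes. *Col1a1* stood in all cells at 8.46 and 6.71 CPM in WT and at 0.251, 1.12 and 1.76 CPM in KO, a log2 fold change of -2.81 (SE 0.71) with an unadjusted p of 0.00892 and an adjusted p of 1 by edgeR. *Col1a2* stood at 12.8 and 12.2 CPM against 1.38, 1.74 and 7.39 CPM (-1.79, SE 0.71, unadjusted p = 0.0479 by edgeR's fit). *Col3a1* stood at 19.1 and 12.2 CPM against 1.003, 6.95 and 6.30 CPM. For these 3 chains of the main fibrils every KO library lay below both WT libraries. Elastin stood at 5.77 and 6.50 CPM against 1.69, 3.57 and 3.53 CPM (-0.99, SE 0.41). *Dcn* stood at 78.6 and 19.3 CPM against 3.57, 14.5 and 20.9 CPM, so that its groups overlapped.

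Every KO library lay below every WT library for 11 of the 46 genes, 23.9%, against 4.2% of all genes tested. Those named here are *Col1a1*, *Col1a2*, *Col3a1*, *Col5a2*, *Col6a1*, *Col6a2*, *Eln*, *Fbn1*, *Lama2* and *Lum*. No matrix gene lay above in every KO library (background 1.11%). The median log2 fold change of the 46 was -0.46, with 40 below 0, against 0.01 for all genes. By class it was -1.52 in 6 fibrillar collagens, -1.17 in 4 type VI chains, -0.77 in 5 proteoglycans and -0.32 in 5 laminin alpha chains, but -0.03 in 3 laminin beta chains and 0.03 in 5 type IV chains. None of these medians carries a test. The median ran from -1.03 without KO mix to -0.16 without WT mix.

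The number of cells called fibroblasts also differed between libraries. It was 22 and 16 in the WT libraries and 3, 3 and 21 in the KO libraries, of 1794 to 3567 cells a library. KO mix, with 21 fibroblasts, held 18 *Col1a1* UMIs in them, against 91 in the 22 of WT female and 64 in the 16 of WT mix. In raw UMIs KO mix lay below both WT libraries in these cells for *Col1a2* too. It held 46 UMIs, against 134 in WT female and 92 in WT mix. The same held for *Col3a1* (64 against 210 and 112), *Lum* (12 against 70 and 16) and *Pdgfra* (9 against 20 and 11). *Dcn*, with 225 UMIs against 929 and 179, lay between the WT libraries. *Gsn*, with 186 UMIs against 144 and 143, lay above both. These counts are not scaled to the UMIs of the fibroblasts of each library, so the positions are not positions in level. Median depths of these fibroblasts were 1576, 3058.5 and 1779.5 UMIs in KO mix, WT female and WT mix. In CPM, 6 fibroblast markers outside the matrix genes summed to 5488 in KO mix, between 1882 in WT female and 8238 in WT mix. Without the fibroblasts 40 matrix genes were tested, with a median of -0.26 and 0 at an unadjusted p under 0.05. Then 4 of the 46 (8.70%, background 4.02%) lay below WT in every KO library, among them *Col14a1*, *Col6a3* and *Eln*, and 0 lay above (background 1.18%). A test within fibroblasts was not made, since 2 libraries alone, WT female and KO mix, had 20 of them. Leaving out the red cells kept all 11 genes (background 4.21%), and again 0 lay above (1.21%).

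**Figure D3:**
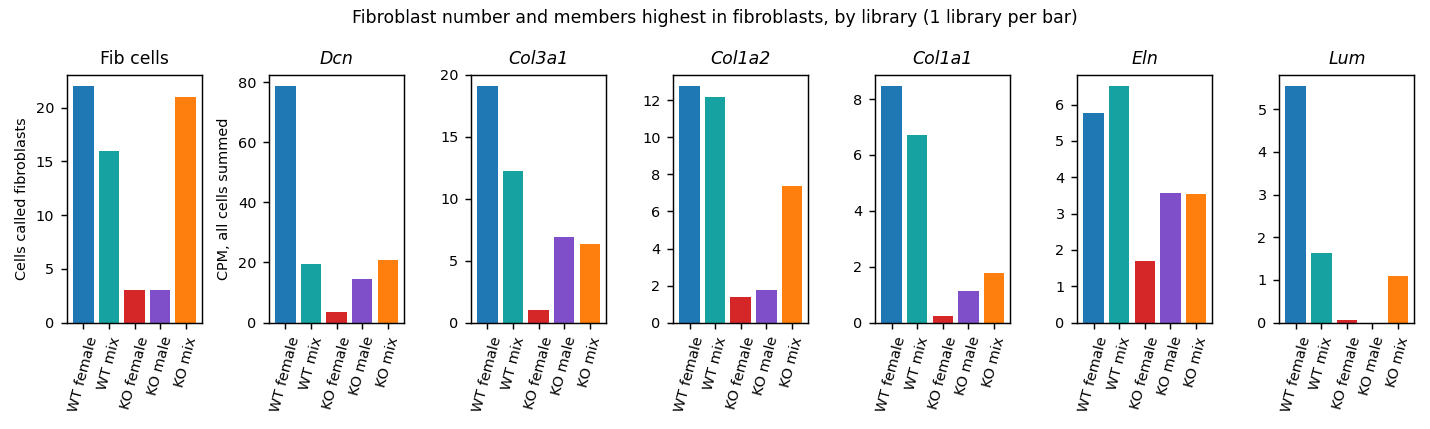
Number of cells called fibroblasts and the all-cell level in CPM of *Dcn*, *Col3a1*, *Col1a2*, *Col1a1*, *Eln* and *Lum* (vertical axes, from 0) in each of the 5 libraries (horizontal axis; 1 bar a library, no replicate error). *Col1a1* bars of the WT libraries stand at 8.46 and 6.71 CPM and those of the KO libraries at 1.76 CPM or less, while the fibroblast number of KO mix, 21, is near that of WT female, 22.

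Genes of the tubular and glomerular basement membranes had smaller differences relative to their errors in all cells. *Col4a4* stood at 205 and 159 CPM in WT against 199, 186 and 182 CPM in KO (log2 fold change 0.14, SE 0.25). *Col4a1* stood at 27.3 and 77.1 CPM against 25.3, 25.8 and 77.3 CPM (-0.23, SE 0.65), and *Lamb1* at 79.9 and 35.2 CPM against 68.1, 70.1 and 40.7 CPM (0.15, SE 0.46). *Sparc* followed *Col4a1*, at 64.8 and 192 CPM against 37.3, 34.2 and 173 CPM (-0.62, SE 0.84). Of the others, *Hspg2* had -0.77 (SE 0.79), *Nid1* -0.57 (SE 0.82), *Lamb2* -0.40 (SE 0.55) and *Lama5* -0.33 (SE 0.30). The ranges of both genotypes overlapped for *Col4a4*, *Col4a1*, *Lamb1* and *Sparc*, and for *Col4a1* and *Sparc* the mix libraries lay above the rest in both genotypes.

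**Figure D4:**
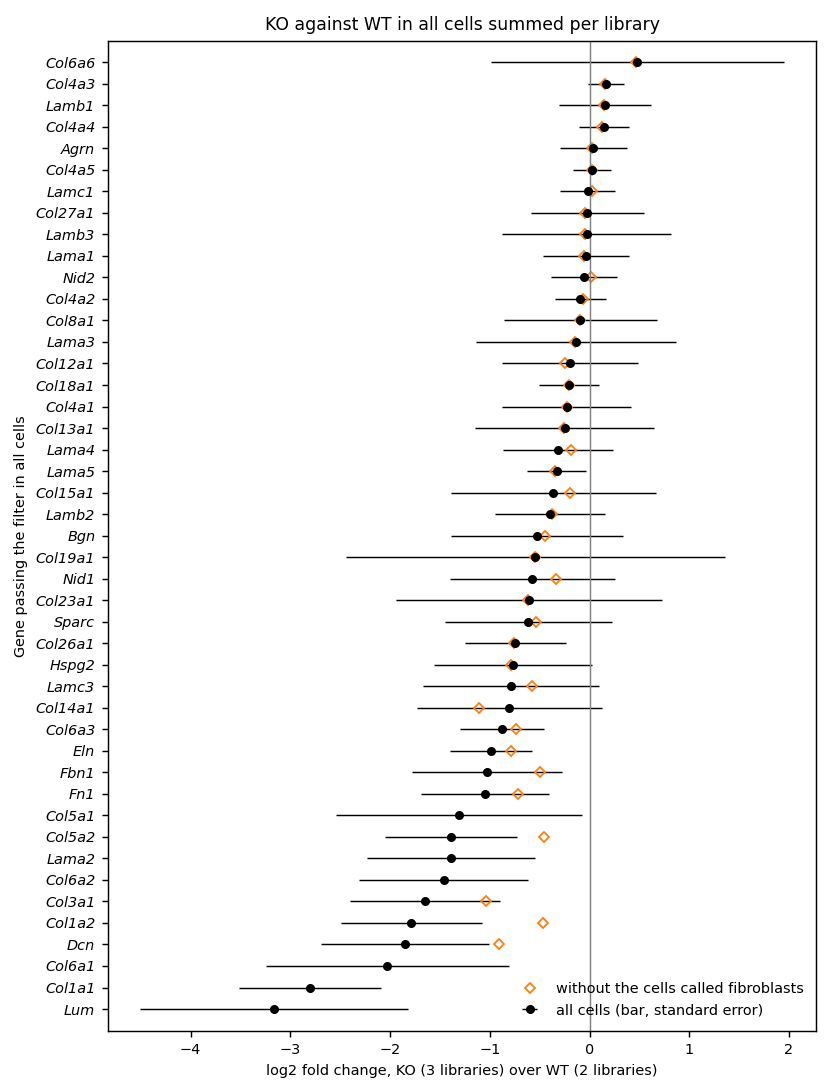
Log2 fold change of KO against WT (horizontal axis, edgeR, bars show 1 SE) for 45 of the 46 matrix genes tested in all cells (vertical axis), with open diamonds for the same fit without cells called fibroblasts. Filled points are below 0 for 39 genes with *Col1a1* at -2.81, and type IV chains lie around a median of 0.03.

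The direction of the matrix genes differed between single cell types. In PTs, 16 were tested with 8 higher and 8 lower (median 0.02), and in CD IC/CD Trans 14 with 7 and 7 (median 0.03). In LOH 11 of 15 were higher (median 0.09), in GL endo 16 of 20 were lower (median -0.18), in CD PC 10 of 14 (-0.15), in PT1 4 of 5 (-0.41), and in VSMC 11 of 11 were lower (median -0.28). The one gene at an unadjusted p under 0.05 was *Col26a1* in CD IC/CD Trans. It stood there at 39.2 and 69.5 CPM in WT and 21.5, 24.6 and 22.8 CPM in KO (log2 fold change -1.09, SE 0.39, unadjusted p = 0.0241 by edgeR's fit). *Col26a1* and *Col4a2* were the 2 of 14 genes in which every KO library there lay below both WT libraries (background 7.4%). In VSMC 1 of 11 genes, *Col4a2*, was lower in every KO library (169 and 215 against 153, 144 and 152 CPM, background 3.69%), in LOH 2 of 15, *Col4a3* and *Lama5* (background 6.41%), and in GL endo 0 of 20 (background 6.53%). *Lama5* in LOH stood at 22.0 and 42.2 CPM in WT against 20.6, 16.3 and 18.3 CPM in KO.

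Other genes of lowest p had wider errors. *Col4a2* in PT2 stood at 11.7 and 12.1 CPM in WT and 21.2, 20.1 and 20.4 CPM in KO (log2 fold change 0.79, SE 0.47, unadjusted p = 0.124 by edgeR's fit). It was the 1 of 10 tested genes higher in every KO library in PT2 (background 5.39%), and *Col18a1* and *Lama5* were the 2 lower in every one (background 5.1%). *Sparc* in PTs stood at 8.16 and 4.18 CPM against 4.90, 2.96 and 2.07 CPM (-0.84, SE 0.45), and *Col4a5* in DCT at 25.4 and 18.9 CPM against 16.7, 14.4 and 15.4 CPM (-0.60, SE 0.44). In GL endo *Lama5* stood at 33.9 and 60.6 CPM against 29.5, 7.87 and 42.1 CPM (-0.66, SE 0.53), with overlap.

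The difference of the KO effect between GL endo and LOH was tested for 25 matrix genes in 1 model, as a comparison of a vessel with a tubule. By edgeR 0 of 8887 genes passed, and the lowest unadjusted p of the 25 was 0.152, for *Lama4*. Of all genes 141 had such a p under 0.05, and 0 of the 25.

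*Dcn* in VSMC was called under some settings only. It had 46 and 0 UMIs in WT and 3, 0 and 1 UMIs in KO, in 11 of 27, 0 of 69, 3 of 21, 0 of 27 and 1 of 74 cells. WT female alone therefore carried it, with up to 13 UMIs in 1 cell, and it did not pass the filter on low counts. With the sex composition of the libraries as a block its log2 fold change was -3.19 (SE 0.67, adjusted p = 0.000718 by edgeR, where 0.526% of 2281 genes were called). Without WT mix it was -4.95 (SE 0.80, adjusted p = 1.55e-06 by edgeR, where 0.45% of 2002 genes were called). That fit has 1 WT library, the one with the 46 UMIs, which is assumed to vary like the KO libraries.

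Genes that build, bind or cut the matrix were read in the same all-cell comparison. None was called by edgeR in any of 5 lists. Of 25 genes of collagen folding and processing 10 were higher and 15 lower (median -0.14), and of 21 integrins and other receptors 9 were higher and 12 lower (-0.13). Of 20 proteases and inhibitors 6 were higher and 14 lower (-0.43), of 43 other matrix genes 11 and 32 (-0.41), and of 20 TGF-beta and PDGF pathway genes 3 and 17 (-0.34). The one gene of these lists at an unadjusted p under 0.05 was *Postn*, the fibroblast protein periostin, at 5.61 and 1.12 CPM in WT and 0.627, 0.511 and 0.420 CPM in KO (log2 fold change -2.58, unadjusted p = 0.0175 by edgeR). *Timp1*, an inhibitor of matrix metalloproteases, stood at 4.92 and 0.406 CPM in WT and 0.188, 0.919 and 0.252 CPM in KO, so that its groups overlapped and WT female was highest. The next of lowest p were *Ogn*, a small proteoglycan of fibroblasts (-0.96), *Bmp1*, which trims procollagen (-1.18), *Adamts2*, which does so too (-2.39), and the receptors *Sdc1* (-0.45) and *Itgb4* (-0.78). The protease *Adam17* had 0.30, and the growth factor receptors *Tgfbr3* and *Pdgfra* had -0.32 and -1.21, all as log2 fold changes that did not pass the test.

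Some matrix genes of the proximal tubule, a segment whose transcriptome differs between male and female mice, differed with the sex composition of the libraries. The 3 libraries with male cells (KO male, WT mix, KO mix) were set against the 2 female libraries in a comparison chosen after the data were seen. WT female, KO female and KO male came from 1 sequencing run and both mix libraries from another, so that sex and run are partly bound together. In PTs edgeR called 465 of 10342 genes (4.5%, of which 2.7% were higher in the libraries with male cells and 1.8% lower). Of 16 matrix genes tested 3 were called, and all 3 were higher.

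*Col6a6*, on chromosome 9 (chr9:105687809-105828160, minus strand), was the clearest. It stood in PTs at 2.93 and 3.09 CPM in WT female and KO female, and at 46.4, 30.8 and 17.1 CPM in KO male, WT mix and KO mix. The groups did not overlap, with KO male, the library of males alone, highest. The log2 fold change was 3.61 (SE 0.47, adjusted p = 0.0133 by edgeR). In PTc it stood at 0.487 and 0.594 CPM against 40.5, 26.2 and 8.65 CPM (5.36, adjusted p = 0.0332 by edgeR, where 0.901% of genes were called, 0.593% higher and 0.308% lower) and in PT2 at 1.66 and 1.11 CPM against 68.9, 30.1 and 16.3 CPM (4.51, adjusted p = 0.0241 by edgeR, where 2.28% were called, 1.23% higher and 1.05% lower). Within the run that holds KO male the same order was found against both female libraries.

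*Lama3*, of anchoring laminin, rose in PTs from 0.209 and 0.182 CPM in the female libraries to 7.96, 5.08 and 3.25 CPM (log2 fold change 4.85, SE 0.69, adjusted p = 0.0152 by edgeR). *Col19a1*, a fibril-associated collagen, had no UMI in PTs of either female library and stood at 2.73, 6.87 and 2.07 CPM in KO male, WT mix and KO mix. Against the limit of 3 counts over the female libraries this is at least 12.9-fold higher (adjusted p = 0.0458 by edgeR). In PTc *Sparc* rose from 2.92 and 3.86 CPM to 17.2, 8.92 and 15.9 CPM (2.09, adjusted p = 0.0486 by edgeR). Red cells held 15.7 CPM of *Sparc*, above all PTc values but those of KO male and KO mix.

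Other genes were lower in the libraries with male cells. *Col8a1*, a short-chain collagen, fell in PTc from 23.9 and 27.3 CPM to 9.48, 6.54 and 3.85 CPM (-1.92, adjusted p = 0.0364 by edgeR). *Col27a1* fell in PT2 from 253 and 383 CPM to 91.8, 153 and 106 CPM (-1.40, adjusted p = 0.0191 by edgeR). In PT1 0 of 5 tested matrix genes were called by edgeR and 0 by DESeq2, 2 and 1 at an unadjusted p under 0.05 (background 2.09%). In all cells edgeR called 0 of 13654 genes, with 1806 genes and 7 matrix genes at an unadjusted p under 0.05, and DESeq2 called 512 genes (3.75%) and 3 matrix genes. The calls rest on few libraries: no matrix gene was called in PTs, PTc or PT2 without WT female, WT mix or KO female in turn. Without KO male, when sex and run coincide, 22 matrix genes were called in all cells, 7 in PTs, 2 in PT1 and 6 in PTc, beside 46.3%, 37.9%, 34.9% and 25.5% of all genes. With genotype as a term 1 was left in PTs and 0 in PTc and PT2, while the log2 fold changes stayed near, as for *Lama3* in PTs (4.82, adjusted p = 0.0545 by edgeR), *Col6a6* in PTc (5.39, adjusted p = 0.0738) and *Col27a1* in PT2 (-1.41, adjusted p = 0.0557). Without a filter on low counts 3 were called in PT1 (4.88% of all genes) and 4 in PT2 (3.26%). With the run as a term, edgeR called 4 in all cells (6.69% of all genes), 7 in PTs (22.9%), 2 in PT1 (6.24%), 3 in PTc (4.73%) and 2 in PT2 (6.36%).

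Within the mix libraries cells were assigned as male or female cell by cell, which removes the run from the comparison. Cells were assigned as female by an *Xist* UMI without a UMI of 4 Y genes, and as male by the reverse. In WT mix 378 cells were female and 800 male, and in KO mix 1445 and 425, while 39 and 75 cells held both kinds of UMI and were left out. No cell of the female libraries was assigned male and none of KO male was assigned female. Assigned cells of the mix libraries had medians of 3149 and 3519.5 UMIs, against 2094.5 and 1907 in cells left unassigned. For the levels below, assigned cells of PTs, PT1, PTc, PT2 and PTf were summed per library and sex. The make-up of these sums by cluster and the level in a cell cannot be told apart in the ratios.

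In the assigned cells of the proximal tubule *Col6a6* stood at 37.8 CPM in male and 13.1 CPM in female cells of WT mix, a ratio of 2.88 (exact Poisson interval 1.48 to 6.26), and at 26.7 and 3.75 CPM in KO mix, a ratio of 7.13 (3.69 to 14.6). Male cells were thus higher within each mix library, whereas female cells of WT mix lay above the 2.30 and 2.19 CPM of the female libraries. In WT mix *Lama3* had 13 UMIs in male and 0 in female cells, at least 1.71-fold higher, and in KO mix 5 and 1 (ratio 12.9, 1.44 to 609). *Col19a1* had 12 and 0 UMIs in WT mix, at least 1.58-fold higher, and 6 and 1 in KO mix (15.4, 1.87 to 710.5).

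*Col27a1* and *Col8a1* gave another picture. The male to female ratio of *Col27a1* was 0.814 (0.622 to 1.07) in WT mix and 0.708 (0.520 to 0.9503) in KO mix, but its female cells there held 107 and 60.9 CPM, against 115 and 178 CPM in WT female and KO female. For *Col8a1* the ratios were 0.790 (0.113 to 8.73) and 0.735 (0.0746 to 3.86). Female cells of the mix libraries lay at or below 2.62 CPM of *Col8a1*, against 9.21 and 13.6 CPM in the female libraries. KO male, of the same run as the female libraries, held 1.87 CPM. With the run as a term *Col8a1* was still called in PTc (-1.50, adjusted p = 0.0265 by edgeR). Within the mix libraries a difference between the sexes was not detectable at this depth, on 6 and 9 UMIs in all.

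**Figure D5:**
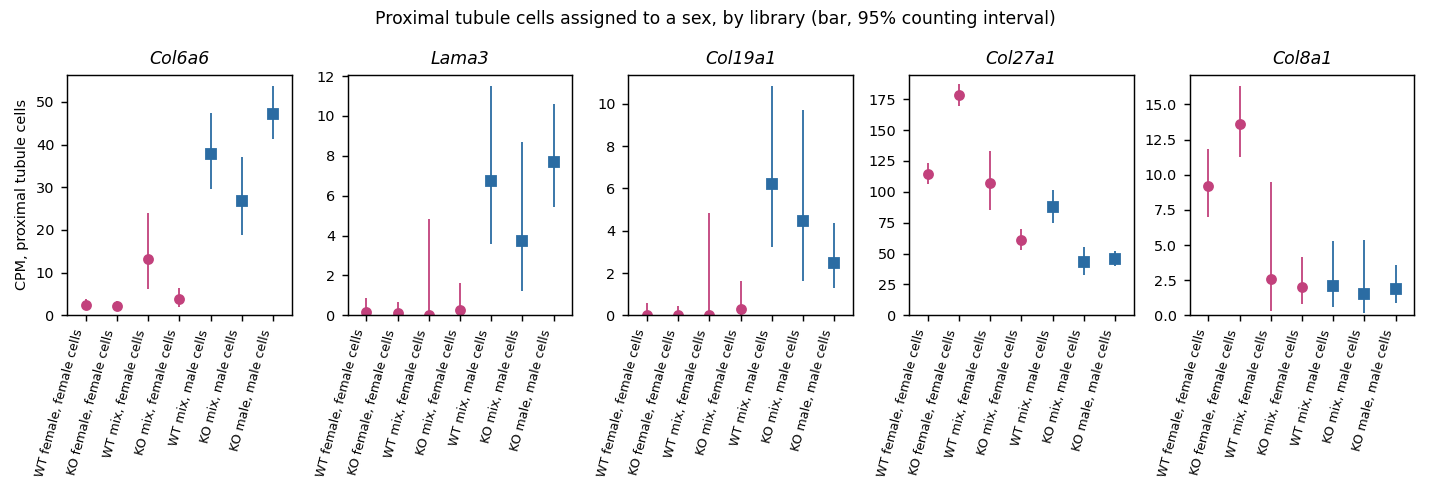
Level in CPM (vertical axes) of *Col6a6*, *Lama3*, *Col19a1*, *Col27a1* and *Col8a1* in proximal tubule cells assigned as female or male, by library (horizontal axis), with 95% exact Poisson intervals that cover counting error only. Male cells stand above female cells for *Col6a6* in both mix libraries (37.8 and 13.1 CPM, 26.7 and 3.75 CPM), whereas *Col8a1* is high in the female libraries alone (9.21 and 13.6 CPM).

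Type IV and laminin chains of the tubule were read in the same cells. For *Col4a4* the ratio was 0.825 in WT mix and 0.822 (0.692 to 0.973) in KO mix, for *Col4a1* 1.04 and 0.985, and for *Lamb1* 0.773 and 0.616 (0.393 to 0.937). For *Col18a1* it was 0.642 and 0.530 (0.275 to 0.951). Intervals of these 3 genes, *Col4a4*, *Lamb1* and *Col18a1*, lay below 1 in KO mix, where cells are not replicates and the interval covers counting error of 1 library.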

How the data were processed

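Single-cell RNA-seq by 10x 3′ v3 chemistry was done on kidneys of WT and *Fame* KO FVB/Ant littermates, dissociated with collagenase P and trypsin. Reads were counted by the authors with Cell Ranger 4.0.0 on mm10 and processed in Seurat 3.2.2.9001, and the deposited count matrix holds UMI counts per gene and cell after their filters (genes in under 3 cells, cells under 1000 counts or over 50% mitochondrial counts). Deposited cell types and Scrublet doublet scores were used as given, and whether doublets were removed was not given in the sources used here. Among cells, 25 barcodes occurred in more than 1 library.

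Counts were summed per library and type where 20 or more cells were present. CPM was computed with Python 3.11.15, and KO and WT (WT female, WT mix; KO female, KO male, KO mix) were compared over all genes with edgeR 4.0.16 in R 4.3.3 (filterByExpr, TMM, quasi-likelihood test, Benjamini-Hochberg), with DESeq2 1.42.0 as an alternative. The test was also run on simulated counts drawn without sequencing run or sex composition, so that this check does not give its power in these libraries. Genes named were, per comparison, the called ones or otherwise the 4 of lowest p and those of highest level, per type the 4 of highest level, per class the 3 of most UMIs, the type IV pairs and, of other lists, the 2 of lowest p. Genes whose groups did not overlap were named after their values were seen. 1 gene of the group is counted in totals and not reported here by itself. Sequences came from the GRCm38 reference. The gene group and all lists were chosen with earlier results of these data known.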

Additional observations from a re-analysis of the deposited data

How the results depend on the processing

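No matrix gene was called between KO and WT in all cells or in 10 of 11 types under DESeq2, no filter on low counts, a threshold of 0.01, stricter cell filters, both blocks and leaving out each library. The exception was VSMC, where *Dcn* was called with the sex composition as replicate block (1 gene) and with libraries left out in turn (0 to 1 genes, 1 without WT mix). Deviations of the libraries correlated in all cells at 0.751 for the female pair and 0.747 for the mix pair. Each pair shares its sequencing run as well as its composition, so these correlations cannot tell composition from run. With deviations taken from the genotype mean, those of WT female and WT mix mirror each other, so the correlations are not separate results. KO male has no partner, so the numbering pairs no libraries and the block is a check only. With the block in all cells, 0 matrix genes were called. A minimum of 10 cells let Juxt ldl LOH, myeloid cells and RBC be fitted, with 0 matrix genes called in each.

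Directions turned for some log2 fold changes of KO against WT, none of which had passed the test. With the sex composition as block *Col27a1* in all cells was 0.064, and with the run as block *Col4a1* was 0.022. *Col6a6* in all cells went from 0.48 to -0.75 with the sex composition as block, and *Col19a1* from -0.54 to 0.36 with the run as block. With libraries left out in turn, the all-cell ranges were -0.78 to 0.24 for *Col27a1*, -0.92 to 0.68 for *Col4a1*, -0.049 to 0.33 for *Col4a4*, -0.34 to 0.86 for *Lamb1* and -1.74 to 0.35 for *Sparc*. The ranges were -1.41 to 0.26 for *Hspg2* in GL endo, -1.29 to 0.0083 for *Col6a3* in LOH and -1.20 to 0.76 for *Col3a1* in VSMC. The last turned without WT female, and *Col4a4*, *Sparc* and *Hspg2* turned without WT mix.

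Calls between libraries with male cells and female libraries moved more. In all cells 3 matrix genes were called by DESeq2, 4 with the run as a term and 0 to 22 with libraries left out in turn, 22 without KO male. In PTs the count was 0 at a threshold of 0.01, 1 with genotype as a term, 7 with the run as a term and 0 to 7 with libraries left out. In PT1 it was 3 with no filter, 2 with the run as a term and 0 to 2 with libraries left out. In PTc it was 0 at 0.01, 1 with at most 25% mitochondrial UMIs, 0 with genotype as a term and 0 to 6 with libraries left out. In PT2 it was 0 at 0.01, 0 with at least 2000 UMIs a cell, 0 with at most 25% mitochondrial UMIs, 0 with genotype as a term, 4 with no filter and 0 to 2 with libraries left out. Beside these counts, edgeR without KO male called 46.3% of all genes in all cells, 37.9% in PTs, 34.9% in PT1 and 25.5% in PTc. With the run as a term it called 6.69% in all cells, 22.9% in PTs and 6.24% in PT1. With no filter the share was 4.88% in PT1 and 3.26% in PT2, and DESeq2 called 3.75% in all cells. The comparison and its alternatives were added after the data were seen, and the cause of these moves was not tested.

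Summed levels moved by more than their spread with at most 25% mitochondrial UMIs in PT2 (935 CPM), Juxt ldl LOH (1793), GL sc (3811), Fib (20304) and podocytes (5477). With cells thinned to 1000 UMIs they moved in PTf (367 CPM), Juxt ldl LOH (1673), Fib (22508) and podocytes (5391), and without the 5% of cells of highest doublet score in myeloid cells (285 CPM), GL sc (3619.9) and Fib (19826). Without red cells the matrix genes made 907 CPM of WT female and 737 CPM of KO female.

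With 2 against 3 libraries, small differences cannot be seen. Fibroblasts, podocytes and PE rest on 44 to 65 cells each, and genes under 20 UMIs are not ordered.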

Other observations

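Genes around the matrix, from the same lists as in the comparison of genotypes, also differed between the libraries with male cells and the female libraries. *Sdc2*, a heparan sulfate proteoglycan of the cell surface, stood in PTs at 8.16 and 8.17 CPM in WT female and KO female and at 207, 115 and 72.7 CPM in KO male, WT mix and KO mix (log2 fold change 4.23, adjusted p = 0.00984 by edgeR). It was also higher in PT1 (4.37, adjusted p = 0.0164) and PTc (3.50, adjusted p = 0.0381) by edgeR's test. *Crtap*, which takes part in the hydroxylation of collagen prolines, stood in PTs at 9.20 and 10.5 CPM against 19.6, 36.8 and 33.7 CPM (1.83, adjusted p = 0.0326 by edgeR). *Hapln1* stood there at 0 CPM in both female libraries against 2.73, 2.39 and 1.18 CPM (6.33, adjusted p = 0.0452 by edgeR). In PTs 1 of 16 folding and processing genes, 1 of 14 receptors and 1 of 14 other matrix genes were called. Of 8 proteases and inhibitors and of 11 TGF-beta and PDGF pathway genes 0 were called, beside 4.5% of all genes.

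In PT2 *Adamts1*, a secreted protease that cuts proteoglycans, stood at 11.7 and 4.46 CPM against 40.2, 94.4 and 69.2 CPM (3.23, adjusted p = 0.00714 by edgeR). *Spp1*, or osteopontin, went the other way, at 3033 and 3025 CPM against 694, 506 and 1241 CPM (-1.86, adjusted p = 0.0115 by edgeR), and was lower in PT1 as well (-2.23, adjusted p = 0.0479 by edgeR). The groups of libraries did not overlap for any of these genes. In PT2 1 of 7 proteases and inhibitors and 1 of 7 other matrix genes were called (background 2.28%). In PT1 it was 1 of 9 receptors and 1 of 4 other matrix genes (background 2.09%), and in PTc 1 of 11 receptors (background 0.901%). The remaining lists had no call in these types. In all cells 18 of 20 TGF-beta and PDGF pathway genes were higher in the libraries with male cells (median 1.11), with 9 at an unadjusted p under 0.05 and 0 called by edgeR. Over all 13654 genes the median was 0.02 and 1806 had such a p. GL endo made 8.23% and 8.30% of the cells of WT mix and KO mix and 5.24% of KO male, against 5.75% and 4.35% of WT female and KO female, and its part in these values was not tested. Sex and sequencing run are partly bound together in all of these values.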
